A study of Mus musculus with 16 samples.

Results

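The immediate early transcription factors examined here were Fos, Fosb, Jun, Junb, Egr1, Egr2, Egr3, Atf3, Nr4a1 and Ier2, 10 of the 55573 genes in a count table of mouse heart ventricles. The members were chosen from earlier results of these same hearts, after the largest changes in expression had been seen, so their levels and differences are given as a description, with no p-value for a member, and counts of members past a threshold stand beside the share of all genes past it. RNA was sequenced from 16 ventricles, 4 in each of 4 groups, about 8 weeks after surgery. All mice were male and carried floxed Trbp alleles with the αMHC-MerCreMer transgene, a Cre recombinase that the α-MHC promoter drives in cardiomyocytes and that tamoxifen activates. The Trbp-cKO groups were given daily tamoxifen (30 mg/kg) for 5 days, beginning when they were 4 weeks old, and the controls corn oil, so loss of Trbp and exposure to tamoxifen cannot be told apart. TAC, or transverse aortic constriction, was made by tying the ascending aorta, which overloads the left ventricle, and sham mice were operated on without the ligature. The groups were therefore control sham, control TAC, Trbp-cKO sham and Trbp-cKO TAC, and the hearts of each are numbered 1 to 4.

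Immediate early genes are held ready for transcription and are switched on within minutes of a stimulus without new protein synthesis, through factors such as SRF and CREB that kinase cascades activate. Their transcripts and proteins are short-lived, so a tissue sample holds a brief record of stimulation, mechanical load, neurohumoral signals and the handling of the tissue included. FOS and JUN proteins pair to form AP-1, ATF3 is a stress-induced partner of the same family, EGR proteins are zinc-finger factors with a GC-rich site, and NR4A1 is an orphan nuclear receptor. In the heart, AP-1 and EGR1 are known as early responses of cardiomyocytes to hypertrophic stimuli.

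The promoters of a member of each family are shown because CREB and SRF sites are the classical control elements of these genes. RefSeq windows on GRCm38.p6 matched 7 of the 10 members, all but Egr1, Egr3 and Ier2, and the 250 bases before a start site were searched on both strands. Capitals mark TGACG, the core of the CREB site, or its reverse complement CGTCA, together with the CArG box bound by SRF, the TATA box TATAAA and the EGR site GCGGGGGCG or its reverse complement. The windows lie at chr12:85473640-85473889 (plus strand) for Fos, at chr10:67537619-67537868 (plus strand) for Egr2 and at chr15:101266596-101266845 (plus strand) for Nr4a1, and the latter 2 precede starts inside the annotated gene.
Fos: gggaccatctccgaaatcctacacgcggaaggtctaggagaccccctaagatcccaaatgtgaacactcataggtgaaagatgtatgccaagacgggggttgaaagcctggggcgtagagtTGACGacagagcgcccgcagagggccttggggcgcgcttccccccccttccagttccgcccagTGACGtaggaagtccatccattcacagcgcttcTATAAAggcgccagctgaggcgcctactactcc
Egr2: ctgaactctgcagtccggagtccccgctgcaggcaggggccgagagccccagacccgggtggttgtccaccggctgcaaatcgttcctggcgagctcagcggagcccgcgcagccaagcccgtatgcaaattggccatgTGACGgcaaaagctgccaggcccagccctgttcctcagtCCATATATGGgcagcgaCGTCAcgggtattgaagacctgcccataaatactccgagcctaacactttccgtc
Nr4a1: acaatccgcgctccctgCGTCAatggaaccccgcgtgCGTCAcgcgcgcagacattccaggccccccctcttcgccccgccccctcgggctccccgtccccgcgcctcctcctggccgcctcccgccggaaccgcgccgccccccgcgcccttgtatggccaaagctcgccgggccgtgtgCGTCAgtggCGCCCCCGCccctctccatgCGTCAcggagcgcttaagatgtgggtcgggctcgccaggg
In Fos, TGACG stood 129 to 125 and 66 to 62 bases before the start and TATAAA 33 to 28 bases before it. The Egr2 window held a CArG box 72 to 63 bases before the start, with TGACG at 111 to 107 and CGTCA at 55 to 51. Nr4a1 held 4 copies of CGTCA and an EGR site 60 to 52 bases before its start. The 7 members had 11 windows, 5 of them of Egr2 and partly overlapping. TGACG in either orientation was present in 8 of the 11, those of Fos, Fosb, Junb, Atf3 and Nr4a1 and 3 of Egr2, and in 17.8% of all 32851 windows. The CArG box was found in 4 windows, all of Egr2, against 1.47% of windows. The overlapping windows among these held the same box, CCATATATGG. TATAAA was found in 1, that of Fos, against 12.4%, and GCGGGGGCG in 2, those of Fosb and Nr4a1, against 2.57%. The full CREB site TGACGTCA, which contains TGACG, the AP-1 site TGANTCA and the EGR site GCGTGGGCG occurred in none of the 11 windows and in 1.55%, 6.75% and 0.536% of all windows. These matches describe letters in these windows and not binding, and sites more than 250 bases before a start were not searched.

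Each heart had 45166994 to 68274222 counts in total, and a member had between 107 and 20425 counts in a heart, so the spread between hearts rather than counting error set the precision. Levels are given as CPM, the count divided by the TMM-adjusted library size and scaled to a common total. Tarbp2, which encodes Trbp, had a mean of 32.2 ± 1.15 CPM (SD, 4 hearts) after sham surgery and 27.0 ± 4.74 after TAC in controls, against 9.53 ± 1.31 and 8.62 ± 1.10 in the matching Trbp-cKO groups. Control TAC hearts 1 and 2 stood apart, with summed cardiomyocyte markers of 20048 and 15473 CPM against 27342 to 47590.1 in the other hearts and with mitochondrial transcripts at 38.2% and 38.8% of counts against 18.2% to 26.3%. All 6 cardiomyocyte markers were expressed, while the 3 adipocyte markers summed to less than 1 CPM in every heart. In bulk ventricular tissue, fewer cells of a type and less RNA per cell cannot be told apart.

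All 10 members passed the filter on low counts. A single control sham heart held the highest level of most of them. Summed over the members, control sham hearts 1 to 4 had 325, 1252, 359.6 and 332 CPM, control TAC hearts 273, 775, 406 and 333, Trbp-cKO sham hearts 249, 401, 258 and 266, and Trbp-cKO TAC hearts 405, 501, 339 and 515. Control sham heart 2 was the highest control sham heart for 10 of the 10 members, as it was for 23.8% of all genes tested, and the highest of all 16 hearts for 9, against 4.63% of genes. Ier2 was the exception. Heart 2 was also the highest of its group for 10 members in control TAC and for 9 in Trbp-cKO sham hearts, whereas in Trbp-cKO TAC hearts heart 4 was the highest for 6 members. The numbers do not mark litters or days in the sources used here. Per kilobase of exon, the median control sham heart had 27.0 CPM of Junb, 26.6 of Jun, 19.6 of Nr4a1, 13.6 of Ier2, 12.5 of Atf3, 11.9 of Egr1, 8.19 of Fos, 5.07 of Egr3, 2.02 of Egr2 and 1.01 of Fosb. On that scale Egr2 fell to the last place in Trbp-cKO sham hearts, at 0.637, and passed Egr3 in Trbp-cKO TAC hearts, at 3.33 against 3.03.

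**Figure D1:**
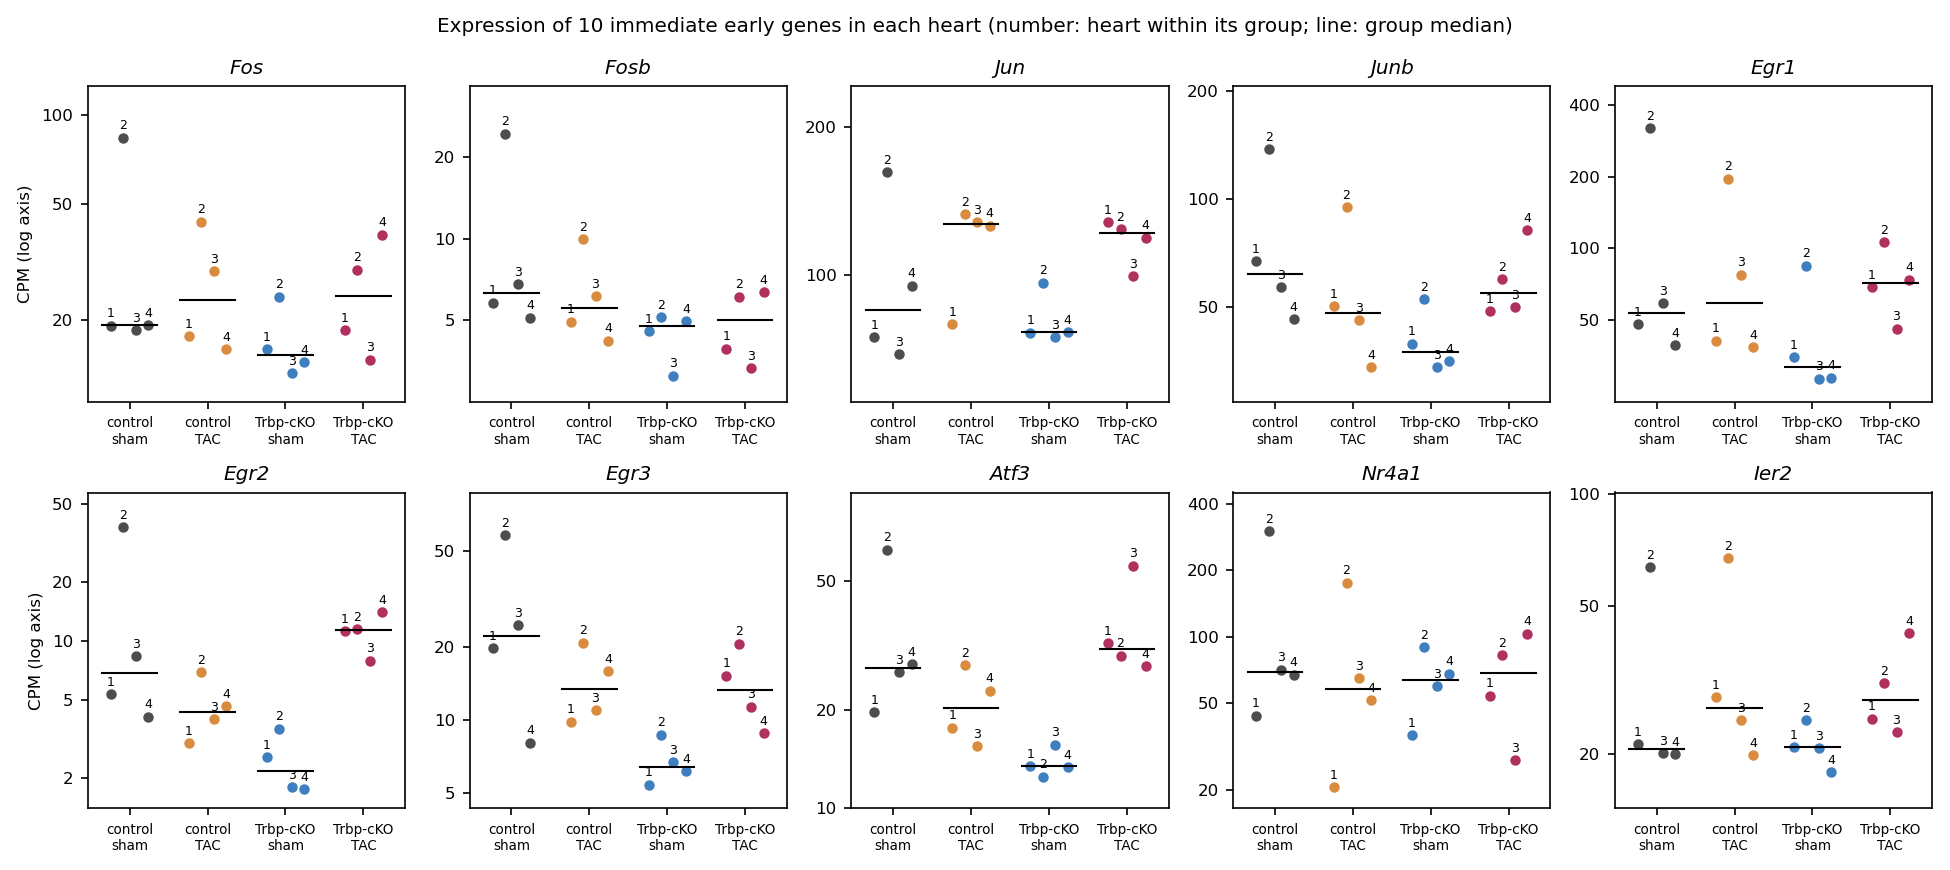
CPM of each member on log axes in the 4 groups, with 1 point per heart, the number of the heart beside it and a line at the group median. Heart 2 lies highest in control sham for every member, up to 321 CPM for Egr1, and the Trbp-cKO TAC hearts lie above the Trbp-cKO sham hearts without overlap for Jun, Egr2, Egr3 and Atf3.

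Fos (ENSMUSG00000021250, chromosome 12 from 85473890 to 85477273, plus strand, GRCm38) encodes the founding FOS subunit of AP-1. Its CPM was 19.2, 83.8, 18.5 and 19.3 in control sham, 17.7, 43.4, 29.4 and 16 in control TAC, 16, 24.1, 13.2 and 14.4 in Trbp-cKO sham and 18.5, 29.8, 14.7 and 39.2 in Trbp-cKO TAC hearts. Heart 2 of the control sham group had 4.41 times the mean of the other 3, which lay within 18.5 to 19.3 CPM, and all groups overlapped. Fosb (ENSMUSG00000003545, chromosome 7 from 19302696 to 19310051, minus strand), a FOS paralog, followed the same hearts at a lower level, with 5.81, 24.4, 6.81 and 5.11 CPM in control sham and 4.95, 9.96, 6.13 and 4.21 in control TAC hearts. Fosb in Trbp-cKO mice ran from 3.13 to 5.15 CPM in sham hearts and from 3.33 to 6.34 in TAC hearts. The groups overlapped in every comparison for Fosb too.

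Jun (ENSMUSG00000052684, chromosome 4 from 95049034 to 95052222, minus strand) encodes the main partner of FOS and overlaps the antisense gene Junos, with which it shares 5.072% of its sequence in 75-base stretches. Its CPM was 74.5, 162, 68.7 and 94.9 in control sham, 79.2, 133, 128 and 126 in control TAC, 76.1, 96.3, 74.6 and 76.3 in Trbp-cKO sham and 128, 124, 99.4 and 119 in Trbp-cKO TAC hearts. After TAC 7 of the 8 hearts lay at 99.4 CPM or above, and every Trbp-cKO TAC heart was above every Trbp-cKO sham heart. Junb (ENSMUSG00000052837, chromosome 8 from 84974484 to 84978718, minus strand), a JUN paralog that overlaps Prdx2 on the other strand and shares 4.738% of its sequence with it, had 67.2, 138, 56.8 and 46.3 CPM in control sham and 50.3, 94.9, 46.0 and 34.0 in control TAC hearts. Junb had 39.5, 52.6, 34.0 and 35.3 CPM in Trbp-cKO sham and 48.7, 59.8, 49.9 and 82.1 in Trbp-cKO TAC hearts, and its groups overlapped throughout. The sources used here do not state whether counting used the strand, so reads of Jun and Junos, or of Junb and Prdx2, may be mixed.

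Egr1 (ENSMUSG00000038418, chromosome 18 from 34859823 to 34864984, plus strand) is the prototype of the zinc-finger EGR family, and its single highest heart stood at 321 CPM. Its CPM was 47.8, 321, 58.5 and 39.0 in control sham, 40.8, 196, 77.3 and 38.3 in control TAC, 34.7, 84.3, 28.2 and 28.5 in Trbp-cKO sham and 68.6, 106, 45.8 and 73.7 in Trbp-cKO TAC hearts. In all 4 groups the highest heart was number 2, and all groups overlapped.

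Egr2 (ENSMUSG00000037868, chromosome 10 from 67535475 to 67542188, plus strand), an EGR paralog known for its part in myelination and lymphocyte tolerance, was the member with the most comparisons without overlap. Its CPM was 5.35, 38.2, 8.35 and 4.09 in control sham, 3.00, 6.92, 3.96 and 4.65 in control TAC, 2.54, 3.55, 1.79 and 1.74 in Trbp-cKO sham and 11.2, 11.5, 7.93 and 14 in Trbp-cKO TAC hearts. Every Trbp-cKO TAC heart lay above every control TAC heart and every Trbp-cKO sham heart, and every Trbp-cKO sham heart lay below every control sham heart. Egr3 (ENSMUSG00000033730, chromosome 14 from 70077203 to 70082614, plus strand), a paralog that recognizes the same DNA site as EGR1, had 19.9, 57.9, 24.7 and 8.09 CPM in control sham and 9.89, 20.9, 11 and 16 in control TAC hearts. Egr3 had 5.43, 8.74, 6.72 and 6.17 CPM in Trbp-cKO sham and 15.3, 20.7, 11.4 and 8.86 in Trbp-cKO TAC hearts. The Trbp-cKO TAC hearts again did not overlap the Trbp-cKO sham hearts, while control sham heart 4, at 8.09 CPM, lay within the range of the latter.

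Atf3 (ENSMUSG00000026628, chromosome 1 from 191170296 to 191218039, minus strand) encodes a stress-induced factor of the ATF/CREB family that mostly represses as a homodimer. Its CPM was 19.8, 62.4, 26.2 and 27.8 in control sham, 17.7, 27.6, 15.5 and 23.0 in control TAC, 13.5, 12.5, 15.7 and 13.4 in Trbp-cKO sham and 32.2, 29.5, 55.7 and 27.4 in Trbp-cKO TAC hearts. The 4 Trbp-cKO sham hearts were below all control sham and all Trbp-cKO TAC hearts, and they ranged from 12.5 to 15.7 CPM. The highest Trbp-cKO TAC heart was number 3, which was the lowest of its group for 7 of the 10 members, among them Fos, Jun, Egr1, Egr2 and Nr4a1.

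Nr4a1 (ENSMUSG00000023034, chromosome 15 from 101254269 to 101274795, plus strand), the orphan receptor also called Nur77, had 43.7, 301, 70.8 and 67.0 CPM in control sham and 20.7, 176, 64.5 and 51.3 in control TAC hearts. Nr4a1 had 35.7, 89.3, 59.6 and 67.8 CPM in Trbp-cKO sham and 53.9, 82.3, 27.5 and 103 in Trbp-cKO TAC hearts. No group was separate from another for Nr4a1, whose mean without control sham heart 2 was 60.5 ± 14.7 CPM (SD, n = 3) in control sham hearts against 63.1 ± 22.1 (n = 4) in Trbp-cKO sham hearts. Ier2 (ENSMUSG00000053560, chromosome 8 from 84661331 to 84662852, minus strand), a single-exon gene for a nuclear regulator of transcription, had 21.3, 63.5, 20.1 and 20.0 CPM in control sham, 28.5, 67.1, 24.7 and 19.9 in control TAC, 20.9, 24.7, 20.8 and 17.9 in Trbp-cKO sham and 24.9, 31.0, 22.9 and 42.2 in Trbp-cKO TAC hearts. Its highest heart was control TAC heart 2, and all groups overlapped.

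The fit of all genes compared the groups in pairs, and a gene was called where edgeR's quasi-likelihood test gave a p of at most 0.05 after Benjamini-Hochberg adjustment and the absolute log2 fold change was at least 0.8. The comparison of control TAC with control sham hearts asks what pressure overload alone had changed at this late time. Egr2 had the lowest log2 fold change, -1.60 (standard error, SE, 0.56), followed by Egr3 at -0.94 (SE 0.44), while Jun and Ier2 were the only members above 0, at 0.22 (SE 0.23) and 0.17 (SE 0.40). The median over the members was -0.54, against 0.02 over all genes. With edgeR's quasi-likelihood test 0 of the 10 members were called, where 3.75% of all genes were, 3 members had an unadjusted p under 0.05 as did 26.6% of genes, and DESeq2 called 1, Egr2. For 0 of the 10 members the groups did not overlap, as against 17.4% of genes. Without control sham heart 2 the median became 0.23 and 6 members were above 0, with Egr1 at 0.86 (SE 0.54) and Egr2 at -0.36 (SE 0.32). Leaving out control TAC hearts 1 and 2, which stood apart, left 2 hearts in that group and moved most members the other way. Jun was then the only member above 0, at 0.34, and the others lay between -1.71 (Egr2) and -0.49 (Ier2). Egr1 was at -1.02 and Nr4a1 at -1.06 in that fit, and 0 members were called.

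Trbp-cKO sham hearts were compared with control sham hearts to see how expression differed without overload. All 10 members had a lower fitted level in Trbp-cKO sham hearts, from Egr2 at -2.54 (SE 0.58) and Egr3 at -2.03 (SE 0.45) to Jun at -0.31 (SE 0.23). The mean CPM of Egr2 was 2.40 ± 0.849 (SD, n = 4) against 14 ± 16.2, that of Egr3 was 6.77 ± 1.42 against 27.7 ± 21.3, and that of Atf3 was 13.7 ± 1.37 against 34.1 ± 19.2. The log2 fold changes were -1.41 for Egr1 (SE 0.68), -1.31 for Atf3 (SE 0.32), -1.24 for Fosb (SE 0.44), -1.05 for Fos (SE 0.49), -0.93 for Junb (SE 0.34), -0.93 for Nr4a1 (SE 0.65) and -0.57 for Ier2 (SE 0.41). Egr2 and Egr3 were called, 2 of the 10 members against 0.967% of all genes, and Egr2 and Atf3 did not overlap between the groups, 2 members against 14.7% of genes. An unadjusted p under 0.05 was reached by 6 members and 13.7% of genes. Without control sham heart 2 the median went from -1.15 to -0.29, and 7 of the 10 members lay between -0.49 and 0.06. Egr3, Egr2 and Atf3 had the lowest values there, at -1.38, -1.30 and -0.85 (SE 0.36, 0.32 and 0.24). In that fit 0 members and 121 of 20238 genes were called, against 193 of 19955 genes with all hearts. The call of Egr2 was also lost on leaving out control sham heart 3, any Trbp-cKO sham heart or Trbp-cKO TAC heart 1, 2 or 3, and that of Egr3 on leaving out control sham heart 1 or 3, any Trbp-cKO sham heart or Trbp-cKO TAC heart 1. Atf3 was called when control sham heart 1, control TAC heart 2 or Trbp-cKO TAC heart 3 or 4 was left out.

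Among TAC hearts, Egr2 and Atf3 had the highest fitted differences between Trbp-cKO and control mice. Egr2 averaged 11.1 ± 2.49 CPM (SD, n = 4) in Trbp-cKO TAC and 4.63 ± 1.67 in control TAC hearts, 1.27 higher on the log2 scale (SE 0.56). Atf3 averaged 36.2 ± 13.1 against 21 ± 5.42 CPM, 0.79 on the log2 scale (SE 0.31). The other 8 members lay between -0.36 (Fosb, SE 0.44) and 0.09 (Junb, SE 0.34), within 1 standard error of 0. With edgeR's quasi-likelihood test 0 of the 10 members were called against 2.46% of all genes, 2 had an unadjusted p under 0.05 as did 21.4% of genes, and edgeR's exact test called Egr2. Egr2 was also the 1 member without overlap, against 10% of genes. Without control sham heart 2, which enters neither group here but bears on the shared estimate of the spread, Egr2 was called at 1.26 (SE 0.30). In that fit 400 of 20238 genes were called, against 491 of 19955 with all hearts. Without control TAC hearts 1 and 2, which leaves 2 hearts in that group, the values of Egr2 and Atf3 were 1.36 and 0.90 and 0 members were called. Jun moved down in that fit, from 0.01 to -0.13. The other members moved upward, to between -0.08 (Fosb) and 0.58 (Junb), with Ier2 at 0.43 and Egr1 at 0.34. Only Jun and Fosb (-0.08) were then below 0.

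Within Trbp-cKO mice, Egr2 and Atf3 were higher after TAC. All 10 members were fitted higher in Trbp-cKO TAC than in Trbp-cKO sham hearts, with a median of 0.58 against -0.00 over all genes. The mean of Egr2 after TAC was 4.63 times that after sham surgery, 2.21 on the log2 scale (SE 0.58), and that of Atf3 was 2.63 times, or 1.40 (SE 0.32). Egr3 followed at 1.05 (SE 0.45), Egr1 at 0.74 (SE 0.67), Fos at 0.59 (SE 0.49), Junb at 0.57 (SE 0.34), Jun at 0.54 (SE 0.23) and Ier2 at 0.52 (SE 0.41). Fosb and Nr4a1 were near 0, at 0.15 (SE 0.44) and 0.08 (SE 0.64). Egr2 and Atf3 were called, 2 of the 10 members against 5.57% of all genes, and 4 members, Jun, Egr2, Egr3 and Atf3, did not overlap, against 17.2%. An unadjusted p under 0.05 was reached by 4 members and 23.0% of genes. No control heart enters these means, and without control sham heart 2 Egr2 and Atf3 were called at 2.20 and 1.39. In that fit 1048 of 20238 genes were called, against 1112 of 19955 with all hearts. Egr2 lost its call when Trbp-cKO sham heart 1, 3 or 4 or Trbp-cKO TAC heart 4 was left out, while Atf3 was called under every alternative run, at 1.11 to 1.51.

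The interaction is the difference between Trbp-cKO and control hearts after TAC minus that after sham surgery. Since all 10 sham differences were below 0, a value above 0 does not mean that the difference was larger in size after TAC. For all 10 members the interaction was above 0, with a median of 1.01 against -0.01 over all genes. Egr2 had 3.81 (SE 0.80) on the log2 scale, Atf3 2.1 (SE 0.45), Egr3 1.99 (SE 0.63), Egr1 1.15 (SE 0.95), Junb 1.03 (SE 0.48) and the other 5 between 0.32 and 0.99. Egr2 and Atf3 were called, 2 of the 10 members against 0.872% of all genes, and an unadjusted p under 0.05 was reached by 4 members and 15.4% of genes. Without control sham heart 2 the median was 0.07, with 6 members above 0, and Egr2 and Atf3 were still called at 2.56 (SE 0.44) and 1.63 (SE 0.33). In that fit 122 of 20238 genes were called, against 174 of 19955 with all hearts. With control TAC hearts 1 and 2 left out, which leaves 2 hearts in that group, 0 members were called, although Egr2 and Atf3 had 3.91 and 2.22. The call of Egr2 was also lost on leaving out control sham heart 3, control TAC heart 1 or 3, any Trbp-cKO sham heart or Trbp-cKO TAC heart 1, 2 or 3, and that of Atf3 on leaving out control sham heart 3 or 4, control TAC heart 1 or 3, any Trbp-cKO sham heart or Trbp-cKO TAC heart 1 or 3.

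**Figure D2:**
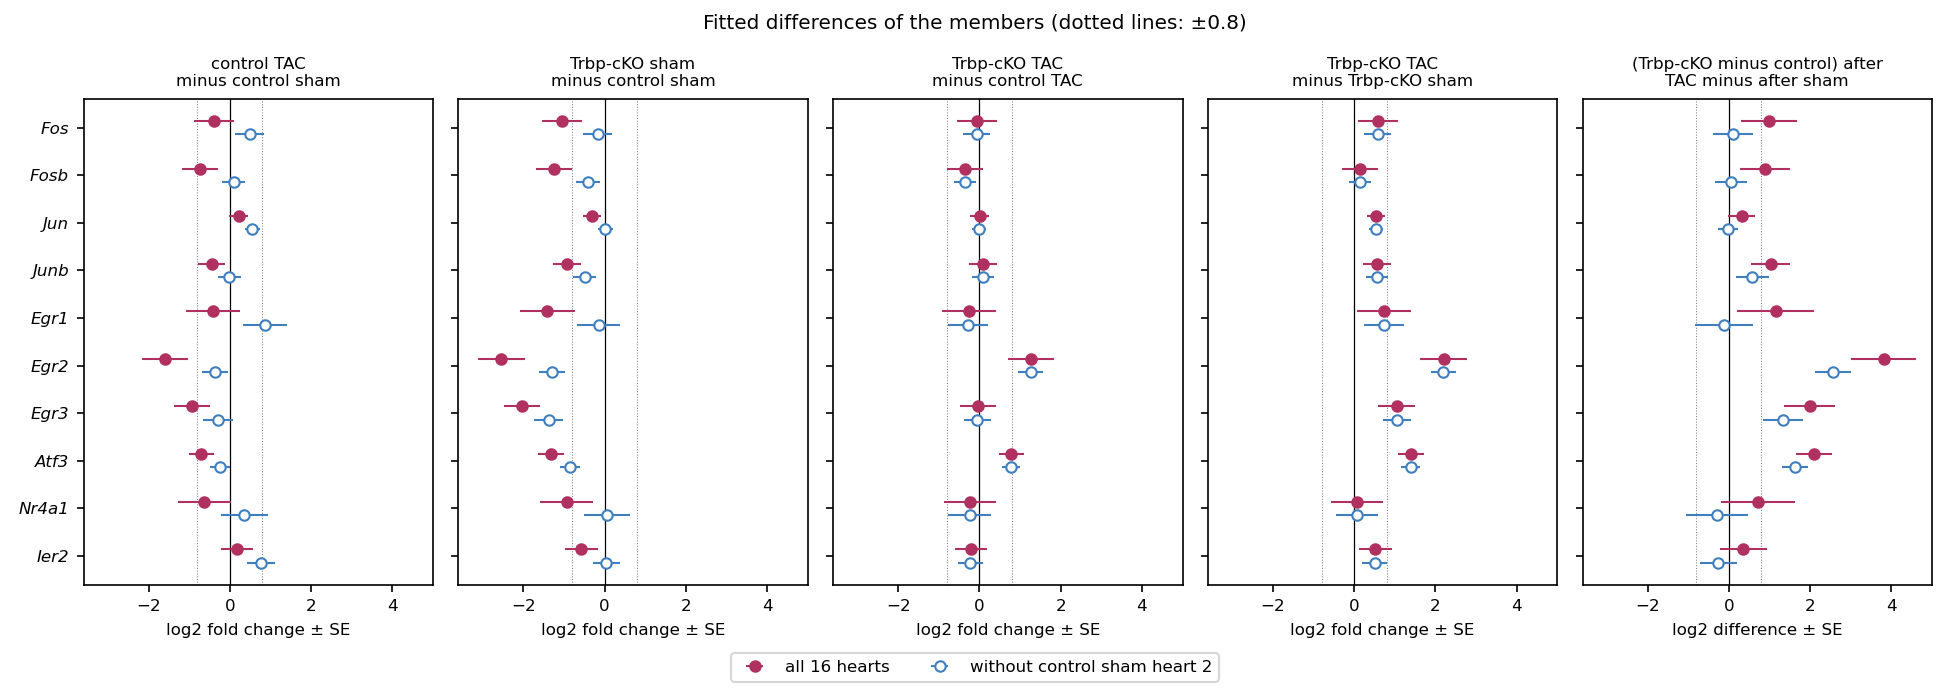
Fitted log2 fold changes of the 10 members with bars of 1 standard error in the 4 comparisons and the interaction, for all 16 hearts (filled) and without control sham heart 2 (open), with dotted lines at the threshold of 0.8 in each direction. Leaving out that heart moves the members upward in the comparisons with control sham hearts, to a median of 0.23 after TAC and -0.29 in Trbp-cKO mice, while Egr2 and Atf3 stay at 2.20 and 1.39 in the comparison of the Trbp-cKO groups.

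The members varied together among the hearts of a group. After centering log2 CPM on the group means, Pearson's r over the 16 hearts lay between 0.372 and 0.962 for the 45 pairs, with a median of 0.783, as a description of points that share a library. Junb and Ier2 had the highest value. Without control sham heart 2 the range was -0.0873 to 0.944 and the median 0.622. Fos, Egr1 and Fosb kept median correlations of 0.825, 0.806 and 0.774 with the other members, Jun and Egr3 had 0.470 and 0.387, and Atf3 had 0.104. Over all 16 hearts the median for Atf3 was 0.458, the lowest of the members. The lowest r, -0.0873, was that of Fos and Atf3. Relative to the mean of the other 3 control sham hearts, heart 2 had 6.63 times the Egr1, 6.45 times the Egr2, 4.97 times the Nr4a1, 4.41 times the Fos, 4.13 times the Fosb, 3.29 times the Egr3, 3.10 times the Ier2, 2.53 times the Atf3, 2.43 times the Junb and 2.05 times the Jun.

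**Figure D3:**
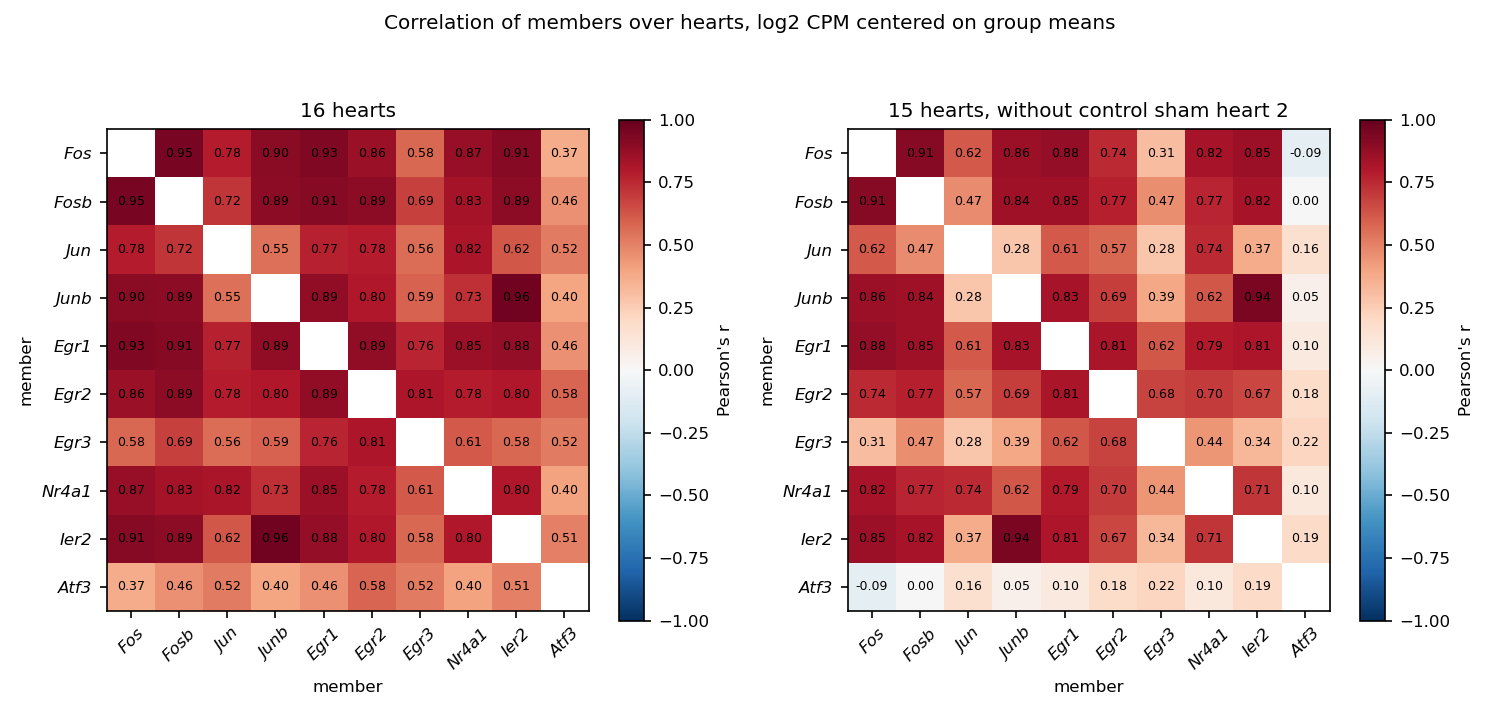
Pearson's r between members over hearts, on log2 CPM centered on the group means, for all 16 hearts (left) and without control sham heart 2 (right), with members on both axes and the value in each cell. The median over pairs is 0.783 on the left and 0.622 on the right, and the row of Atf3 is the palest.

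Outside the list, the gene most like the members' mean level over the 16 hearts was Btg2, an antiproliferative immediate early gene, at r = 0.911 and Spearman's rho = 0.797 among 12950 genes compared. Next were Slc25a25 (r = 0.848), Ccn1 (0.824), Zfp36 (0.814), Nr4a2 (0.812), Gm43660 (0.806), Pde4b (0.787), Dusp1 (0.787), Fosl2 (0.783) and Klf2 (0.754). Zfp36 destabilizes short-lived mRNAs, Dusp1 is a MAP kinase phosphatase, Nr4a2 is a paralog of Nr4a1 and Fosl2 a FOS paralog. Btg2 had 197 CPM in control sham heart 2 against a median of 65.6 over the hearts. Without the 2 hearts farthest from the median, control sham heart 2 and control TAC heart 2, r was 0.863 for Ccn1 and 0.701 for Btg2 over 14 hearts, but 0.287 for Pde4b and 0.444 for Klf2. After centering on the group means the 10 nearest genes were Btg2 (r = 0.933), Ccn1 (0.923), Slc25a25 (0.892), Nr4a2 (0.885), Sertad1 (0.863), Necab1 (0.847), Sertad3 (0.808), Pde4b (0.804), Acsl3 (0.798) and Lrp12 (0.797).

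Other genes of the same families and of the pathway were followed in lists written from general knowledge with earlier results of these hearts known. Of 9 other AP-1 and ATF subunits, only Fosl2 was called, between the sham groups, where 0.967% of all genes were. Fosl2 had 62.6, 120.4, 75.8 and 62.9 CPM in control sham against 21.8, 37.8, 29.1 and 32.1 in Trbp-cKO sham hearts. Its log2 fold change was -1.41 (SE 0.30, edgeR adjusted p = 0.0317), and -1.15 (edgeR adjusted p = 0.0796) without control sham heart 2. The call was also lost without control sham heart 3 or any Trbp-cKO sham heart. Of the 5 other EGR and NR4A genes and NAB corepressors, Nr4a3, a paralog of Nr4a1, was called in 3 comparisons. The shares of all genes called there were 3.75% between the control groups, 0.967% between the sham groups and 0.872% in the interaction. Nr4a3 had 27.8, 72.7, 49.9 and 36.9 CPM in control sham, 12.2, 11.5, 9.37 and 18.2 in control TAC, 9.41, 8.66, 13.5 and 15.3 in Trbp-cKO sham and 23.4, 28.9, 15.5 and 11.6 in Trbp-cKO TAC hearts. All 4 control sham hearts were above every control TAC and Trbp-cKO sham heart, with log2 fold changes of -1.87 (adjusted p = 0.00654, edgeR) after TAC and -2.0 (adjusted p = 0.00867, edgeR) between the sham groups, an interaction of 2.62 (adjusted p = 0.0169, edgeR), and calls in all 3 when any single heart, control sham heart 2 included, was left out. Without control TAC hearts 1 and 2 together, which leaves 2 hearts in that group, the log2 fold change after TAC was -1.77 and the interaction 2.52, and neither was called (adjusted p = 0.108 and 0.0639, edgeR). The groups of its paralog Nr4a1 overlapped in all comparisons.

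Of 35 other immediate early genes, 1 was called higher and 2 lower in control TAC than in control sham hearts, and 4 were called lower in Trbp-cKO sham than in control sham hearts. Over the 4 pairs and the interaction 3, 4, 2, 5 and 2 of the 35 were called, against 3.75%, 0.967%, 2.46%, 5.57% and 0.872% of all genes. Errfi1, a feedback inhibitor of the EGF receptor, was lower in both (log2 fold change -2.09 in each, adjusted p = 0.00856 and 0.0170, edgeR), as was Cebpb, a bZIP factor (-1.19 and -1.28, adjusted p = 0.0166 and 0.0231, edgeR). Plk2, a stress-induced kinase, was higher in control TAC hearts at 1.21 (adjusted p = 0.0299, edgeR), while Socs3, an inhibitor of cytokine signaling, and the growth regulator Myc were lower in Trbp-cKO sham hearts at -1.43 and -1.23 (adjusted p = 0.0377 and 0.0495, edgeR). After TAC, Gadd45g, a growth arrest gene, and Ier3 were higher in Trbp-cKO than in control hearts at 1.80 and 1.18 (adjusted p = 0.0112 and 0.00815, edgeR). Gadd45g had 17.6, 26.9, 58.2 and 39.1 CPM in Trbp-cKO TAC hearts against 7.30 to 15.3 in control TAC hearts, and like Atf3 it was highest in heart 3. Between Trbp-cKO TAC and Trbp-cKO sham hearts, 5 of the 35 were called higher and 0 lower, Gadd45g (2.39), Ccn1 (1.74), Maff (1.63), Myc (1.11) and Ier5 (0.87), with adjusted p from 0.000819 to 0.0388 (edgeR), and 34 of the 35 were above 0. The interaction called Errfi1 at 2.54 (adjusted p = 0.0394, edgeR) and Gadd45g at 2.40 (adjusted p = 0.0375, edgeR). On leaving out single hearts, Errfi1 after TAC in controls, Ier3 and both pairwise calls of Gadd45g were always made, while every other call named here was lost without at least 1 heart. Control sham heart 2 was such a heart for Plk2 and for the interaction of Errfi1 (adjusted p = 0.0750 and 0.0679 without it, edgeR), and Trbp-cKO sham heart 4 was the one such heart for Ccn1. The median of the list was -0.20 and -0.52 in the 2 comparisons with control sham hearts, 0.27 between the TAC groups, 0.52 within Trbp-cKO mice and 0.69 for the interaction. Omitting control sham heart 2 moved the first pair of values to -0.10 and -0.34 and the interaction to 0.49.

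Of 23 upstream kinases and transcription factors, among them Srf, Creb1 and the MAP kinases, 1 was called, the kinase gene Rps6ka5, which was lower in Trbp-cKO TAC than in Trbp-cKO sham hearts, where 5.57% of all genes were called (log2 fold change -0.99, SE 0.25, adjusted p = 0.0209, edgeR), a call lost without Trbp-cKO sham heart 2 or 4 or Trbp-cKO TAC heart 4. Of 13 feedback inhibitors of the Dusp, Spry, Spred and Zfp36l families, 0 were called by edgeR's quasi-likelihood test in any comparison, with 1, 1, 1, 4 and 1 at an unadjusted p under 0.05 in the 4 pairs and the interaction, against 26.6%, 13.7%, 21.4%, 23.0% and 15.4% of all genes. Of 10 secreted inducers, 9 could be tested, all but Areg, and 1, 0, 1 and 3 of them were called higher in the 4 pairs and 1 in the interaction. The shares of all genes called were 3.75%, 0.967%, 2.46%, 5.57% and 0.872% in the same order. Hbegf, a ligand of the EGF receptor, had 14, 13.8, 14.7 and 11.8 CPM in control sham, 23.6, 35.4, 19.3 and 26.3 in control TAC, 18.1, 19.2, 14.2 and 15.7 in Trbp-cKO sham and 88.3, 103, 62.2 and 56.2 in Trbp-cKO TAC hearts. The Trbp-cKO TAC hearts were above all others, by 1.56 over control TAC (SE 0.20, adjusted p = 0.000441, edgeR) and by 2.20 over Trbp-cKO sham hearts (SE 0.21, adjusted p = 1.33e-05, edgeR), and Hbegf was higher by 0.94 after TAC in controls (adjusted p = 0.0146, edgeR). The interaction was 1.26 (adjusted p = 0.0445, edgeR), and lost its call in the fit without control sham heart 2 (adjusted p = 0.0789, edgeR) and without most other single hearts. The increase in controls was not called without control sham heart 4 or control TAC heart 2. Ereg, another ligand of that receptor, and Ptgs2, the inducible cyclooxygenase, were higher in Trbp-cKO TAC than in Trbp-cKO sham hearts (for Ereg, means of 2.36 and 0.126 CPM), at 4.23 and 1.31 (adjusted p = 0.00922 and 0.0139, edgeR), and like Hbegf they were called there without any single heart.

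Genes of heat shock and of the circadian clock were followed beside the members, without a test between the lists. Among the 11 heat shock genes 1, 5, 0 and 0 were called between the control, sham, TAC and Trbp-cKO groups and 1 in the interaction, where the members had 0, 2, 0, 2 and 2 calls. Of 5 clock genes of the Bmal1 arm 2, 2, 0, 2 and 3 were called, and of 10 of the opposite arm 2, 6, 0, 3 and 4, against 3.75%, 0.967%, 2.46%, 5.57% and 0.872% of all genes. When control sham heart 2 was left out, the calls were 0, 1, 0, 0 and 0 for heat shock genes, 0, 1, 0, 1 and 2 for the Bmal1 arm and 1, 4, 0, 4 and 2 for the opposite arm. Of all 20238 genes tested in that fit, 373, 121, 400, 1048 and 122 were called in the same order. Between the sham groups the median log2 fold change of the heat shock genes went from -1.22 to -1.05 without that heart. The Bmal1 arm went from -1.31 to -1.17 and the opposite arm from 1.0 to 0.97. The 11 heat shock genes summed to 3256 to 5901 CPM in control sham, 1882 to 3433 in control TAC, 2454 to 2669 in Trbp-cKO sham and 2003 to 3799 in Trbp-cKO TAC hearts. Relative to control sham hearts, 5 of the 11 were called lower in Trbp-cKO sham hearts, including Hspa1b at -3.85 and Hspa1a at -3.70 (adjusted p = 0.0332 and 0.0422, edgeR), and control sham heart 2 was the highest control sham heart for 1 of the 11. The 5 clock genes of the Bmal1 arm summed to 86.8 to 105 CPM in control sham, 61.6 to 66.7 in control TAC, 44.5 to 49.8 in Trbp-cKO sham and 56.0 to 89.5 in Trbp-cKO TAC hearts. The 10 genes of the opposite arm, with Dbp, summed to 378 to 482, 554 to 645, 832 to 899 and 379 to 689 CPM in the same order. Neither arm overlapped between control sham and Trbp-cKO sham hearts, where 2 of 5 genes were called lower and 6 of 10 higher. Control sham heart 2 had the highest sum of the Bmal1 arm of the 16 hearts, 105 CPM, and the lowest of the opposite arm, 378 CPM, next to 379 CPM in Trbp-cKO TAC heart 3. Within Trbp-cKO TAC hearts, Arntl was at 3.39, 2.79, 17.9 and 14.9 CPM, whereas Jun and Egr3 were higher in hearts 1 and 2 than in hearts 3 and 4 and the other 8 members did not divide the hearts in this way. The fibroblast markers summed to 531 to 606, 645 to 1099, 678 to 869.6 and 906 to 1326 CPM in the 4 groups, the endothelial markers to 677 to 789.8, 696 to 1474, 609.7 to 1089 and 594 to 1019.6, the macrophage markers to 151 to 176, 154 to 188, 159.6 to 206 and 164 to 167, and the neutrophil markers to 5.36 to 10.7, 4.55 to 7.80, 4.16 to 5.28 and 4.45 to 6.86, with 3 of 5 tested. Csf3r made up most of the neutrophil sum, while S100a8 and S100a9 were at 0.362 to 1.61 and 0.566 to 2.92 CPM in control sham, 0.140 to 0.398 and 0.105 to 1.02 in control TAC, 0.190 to 0.341 and 0.278 to 0.536 in Trbp-cKO sham and 0.452 to 0.921 and 0.592 to 1.29 in Trbp-cKO TAC hearts. The median log2 fold change of the 3 neutrophil markers tested was -1.55 between the sham groups and 2.79 for the interaction, with 0 called by edgeR, and 3 and 2 at an unadjusted p under 0.05. In the fit without control sham heart 2 the interaction had a median of 3.01 and 1 of the 3 was called higher. Of the 5 fibroblast markers 1 was called higher after TAC in controls, 1 higher in Trbp-cKO TAC hearts than in each group compared with them, and 1 lower in the interaction. Of the 5 endothelial markers 1 was called higher in control TAC than in control sham hearts, and 0 when control sham heart 2 was omitted. The endothelial sum was 1336 and 1474 CPM in control TAC hearts 1 and 2, which stood apart, and 725 and 696 in hearts 3 and 4. In the same hearts the fibroblast sum was 1099 and 1083 CPM against 645 and 733. The smooth muscle and pericyte markers summed to 823 to 994, 723 to 1011, 1068 to 1312 and 854 to 1341 CPM, without overlap between the sham groups, and Acta2 among them averaged 219.8, 91.2, 499 and 466 CPM. Of these 5 markers 1 was called in each of the 4 pairs, and 0 by edgeR between the sham groups when control sham heart 2 was omitted. The lymphocyte, erythroid and mesothelial sums overlapped between all groups. The atrial markers summed to 4.33 to 7.85 CPM in Trbp-cKO TAC hearts and to 1.21 to 2.95 in the other groups, and 1 of the 2 tested was called higher in Trbp-cKO TAC hearts than in either group compared with them. In the interaction 1 of these 2 was called higher too (median 1.63), also without control sham heart 2 (median 1.83). Control sham heart 2 lay within the range of its group for the endothelial, fibroblast and macrophage sums, at 747, 588 and 164 CPM, and it had the highest cardiomyocyte sum of its group, 47144 CPM. The part of heat shock, clock phase, cell composition, atrial tissue and collection of the tissue in the differences of the members was not tested.

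**Figure D4:**
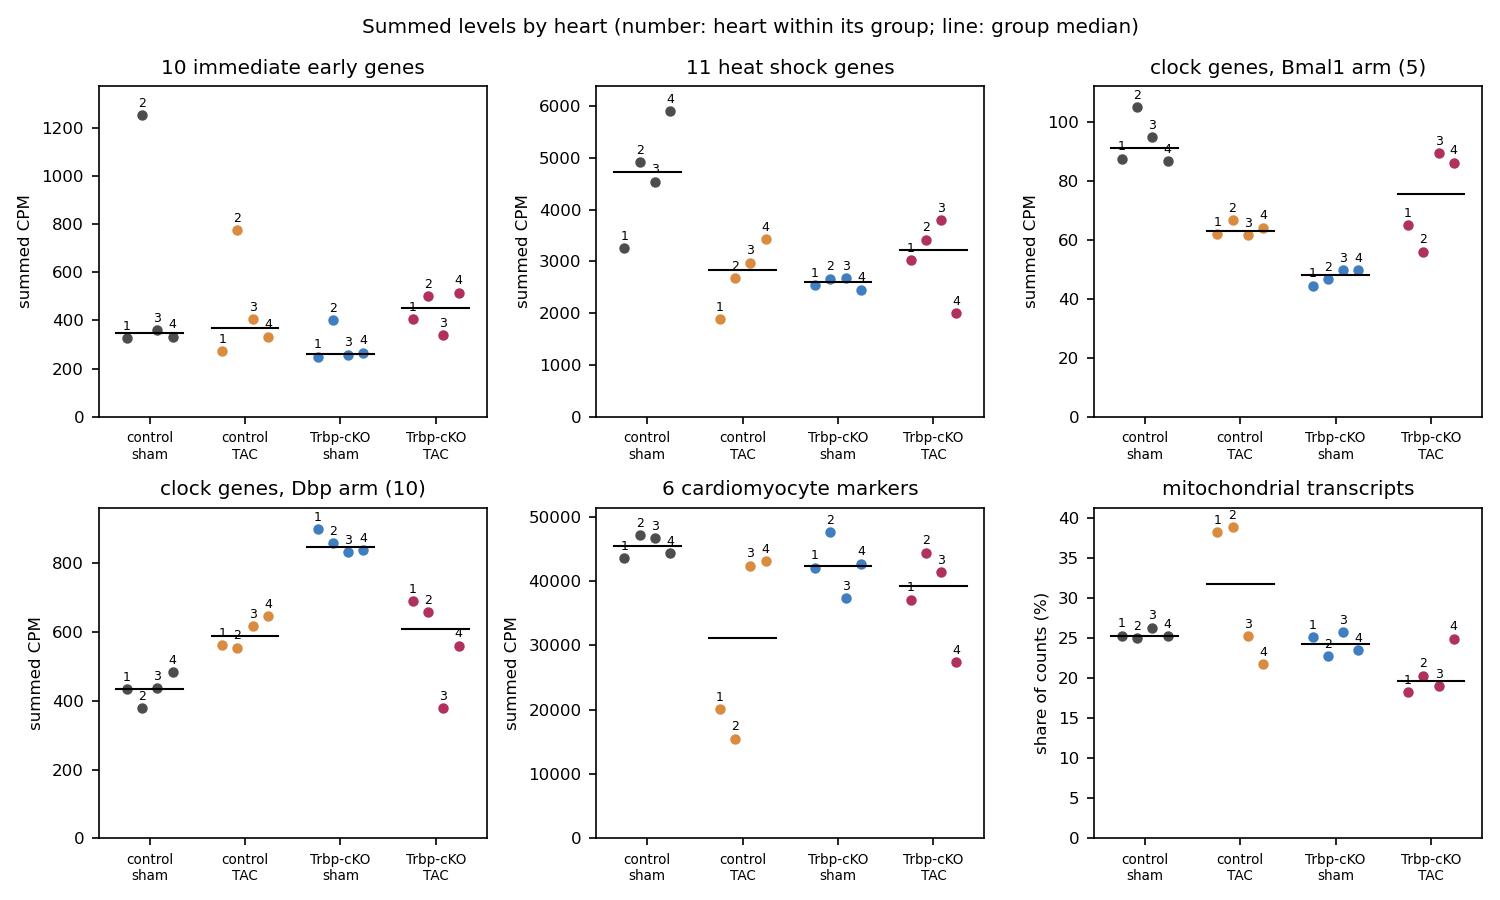
Sums of CPM by heart for the 10 members, 11 heat shock genes, the 2 arms of the clock and 6 cardiomyocyte markers, and the share of counts on the mitochondrial chromosome, with 1 numbered point per heart, a line at the group median and axes that start at 0. Control sham heart 2 stands at 1252 CPM for the members, while it lies within its group for heat shock genes at 4908 CPM. The cardiomyocyte markers are lowest in control TAC hearts 1 and 2.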

How the data were processed

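The authors prepared the paired reads of ventricular RNA with Cutadapt 2.3 for trimming, HISAT2 2.1.0 for alignment (GRCm38) and StringTie 1.3.4 for abundance, and the deposited values are counts, whole numbers per gene and heart, not normalized and not filtered. The read length assumed in deriving counts and the use of strand are not given in the sources used here. All 16 count columns belonged to a sample. Symbols and positions came from GENCODE release M21, which placed 55480 of the 55573 genes. Each sample is the ventricle of 1 mouse.

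Tests were run in edgeR 4.0.16 (R 4.3.3). After edgeR's default filter, 19955 genes entered a single robust quasi-likelihood fit of all 16 hearts with TMM scaling and the 4 groups as the sole terms, which was tested on simulated data. The members and lists were chosen with earlier results of these data known. Named are all members, called genes of the companion lists (at most 5 in each direction by absolute log2 fold change), the 10 genes most correlated with the members' mean standardized log2 CPM (mean log2 CPM of at least 1) with and without centering, and Tarbp2. Alternatives were library sizes without TMM, DESeq2 1.42.0, a fit of the compared groups alone, other filters, halved counts, edgeR's exact test, other fold thresholds, a block for the replicate number, omission of single hearts and, chosen after seeing the data, the hearts numbered 2 or control TAC hearts 1 and 2 left out together.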

Additional observations from a re-analysis of the deposited data

Results flagged for a closer look

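In 10 of 40 combinations of a member and a group, 1 heart lay far from the other 3 by Dixon's criterion. Chance flags about 1 in 20 independent groups, and 6.42% of combinations of any tested gene and a group passed the criterion. Neither is a reference for these 40, since the members were chosen from these hearts and vary together within the same libraries. Control sham heart 2 accounted for 6 of them, with 83.8 CPM of Fos against 18.5 to 19.3 in the other hearts of its group, 24.4 of Fosb against 5.11 to 6.81, 321 of Egr1 against 39.0 to 58.5, 38.2 of Egr2 against 4.09 to 8.35, 301 of Nr4a1 against 43.7 to 70.8 and 63.5 of Ier2 against 20.0 to 21.3. Trbp-cKO sham heart 2 stood apart for Jun at 96.3 CPM against 74.6 to 76.3 and for Egr1 at 84.3 against 28.2 to 34.7. Control TAC heart 1 was low for Jun, at 79.2 CPM against 126 to 133, and it is one of the hearts with few cardiomyocyte marker counts. Trbp-cKO TAC heart 3 was high for Atf3, at 55.7 CPM against 27.4 to 32.2.

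The interaction term of the fit, the difference between Trbp-cKO and control hearts after TAC minus that after sham surgery, was called for Egr2 (3.81 on the log2 scale) and Atf3 (2.1). In the companion lists the same term was 2.62 for Nr4a3, 2.54 for Errfi1, 2.40 for Gadd45g, 1.26 for Hbegf and 1.27 for the heat shock gene Hsp90aa1. Among clock genes it was 3.35 for Arntl, 1.88 for Nfil3 and 0.89 for Clock, and below 0 for Dbp (-2.60), Per3 (-2.12), Hlf (-1.72) and Tef (-1.30). In the fit without control sham heart 2 the term was no longer called for Errfi1, Hbegf, Hsp90aa1, Arntl, Hlf and Tef, and was called again for the others named here. That fit called the term for 122 of 20238 genes, against 174 of 19955 with all hearts.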

How the results depend on the processing

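Each member had at least 107 counts in a heart. Leaving out 1 heart at a time, 0 members were ever called between the control groups, 0 to 3 between the sham groups, 0 to 1 between the TAC groups, 1 to 2 between the Trbp-cKO groups and 0 to 2 in the interaction. The companion lists gave 4 to 14, 6 to 21, 3 to 4, 8 to 17 and 5 to 13 calls in the same order, against 10, 19, 3, 14 and 12 with all hearts. Between the control groups DESeq2 called 1 member and 18 companion genes, and 1 companion gene was called without the hearts numbered 2 and 1 without control TAC hearts 1 and 2. Between the sham groups the calls of members were 0 with no filter, 0 with only the groups compared, 0 without the hearts numbered 2 and 4 by edgeR's exact test. Companion calls in the same settings were 12, 22, 6 and 26. Between the TAC groups the exact test and the fit without the hearts numbered 2 called 1 member each, and companion calls were 1 with only the groups compared and 6 with no threshold on the fold change. Within Trbp-cKO mice 1 member was called with no filter and 23 companion genes with no threshold. The interaction called 0 members and 5 companion genes with no filter, 1 member without the hearts numbered 2, 0 members without control TAC hearts 1 and 2, and 24 companion genes by DESeq2. The causes were not tested. The share of all genes called is not given for these settings, so their counts do not set the members apart from other genes. Library sizes without TMM put the median log2 fold change of all genes at 0.13 between the TAC groups, from -0.01, and at 0.11 between the sham groups, from 0.01, and turned Fos and Egr3 above 0 in the former. Of 1280 refitted fold changes of members, 1257 moved by less than the spread between hearts, and of 1458 for called companion genes 1112 were called again and 346 not, with none of their signs turned.

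With the replicate number as a block, 1 member was called between the sham groups and 1 in the interaction. Egr2 lost its call between the sham groups and Atf3 its call in the interaction. Companion calls were 6 between the control groups, 9 between the sham groups and 4 in the interaction. By correlation the hearts did not pair by number: 3 of 24 pairs with the same number had deviations correlated above 0.1 (range -0.427 to 0.21), and 1 of 16 hearts correlated best with its own number. For the members themselves, heart 2 was the highest of its group for 10 in control sham, 10 in control TAC and 9 in Trbp-cKO sham hearts.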
